A study of Homo sapiens with 5 samples.

Results

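The transcripts described here were those of YAP1, of TEAD1 and TEAD4, the DNA-binding partners of its protein, and of 7 genes known as targets or feedback regulators of the complex, CCN1, CCN2, ANKRD1, AMOTL2, AJUBA, LATS2 and F3. These 10 genes were chosen by their measured values on the same arrays, with the differences between populations in view, so that every level and difference below is a description and none was tested. All probe sets that the platform annotation assigned to 1 of these genes alone were taken, each shown apart. They numbered 22 of 54613 probe sets without controls, and the 10 genes were among 19775 with a symbol of their own. AJUBA and LATS2 had 4 probe sets each, YAP1 and TEAD1 had 3, CCN1 and TEAD4 had 2, and AMOTL2, ANKRD1, CCN2 and F3 had 1.

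Expression was measured in 5 stably transfected populations of MIAPaCa2 cells, an established line from a poorly differentiated pancreatic ductal adenocarcinoma (PDAC), with 1 Affymetrix array for each. MP2-α2/TC cells carried the α2 integrin behind a cytomegalovirus promoter under zeocin selection and were kept in standard tissue culture. MP2-α2/CI cells came from the same transfection and panning and were kept on plates coated with 25 μg/ml collagenI. MP2-α2Δ cells carried α2 without its cytoplasmic domain, under zeocin and on 25 μg/ml collagenI. MP2-α9α2 cells carried a chimera of α9 and α2, under G418 and on 10 μg/ml of the FNIII fragment of tenascin. MP2-mock cells were kept under drug selection, and neither their drug nor their substrate is given on their own label. All populations shared the parental line, drug selection and a harvest before confluence. Construct, selection drug and substrate differed together between the MP2-α2Δ and the MP2-α9α2 population and cannot be told apart. With 1 array per population no value has a replicate error, and no ordering of levels could be set against a spread. An array of bulk RNA also cannot tell fewer cells with a transcript from less transcript per cell.

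YAP1 and its relative WWTR1 (TAZ) are coactivators that enter the nucleus and bind TEAD proteins, which carry the complex to DNA. The Hippo kinases STK3 and STK4 and then LATS1 and LATS2 phosphorylate YAP1 and keep it in the cytoplasm, and cell contacts, the actin cytoskeleton and adhesion to matrix act on this chain. Several targets feed back on it, among them LATS2, AMOTL2 and AJUBA, and CCN1, CCN2 and ANKRD1 are the transcripts most often read as its output. The activity of the complex depends largely on where its protein is and on its phosphorylation, neither of which an RNA array measures.

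TEAD proteins bind the letters GGAATG, which read CATTCC on the other strand. Promoter sequence (RefSeq, build GRCh38.p14) was matched for 7 of the 10 genes, with 9 start sites, and the 250 bases before each start were searched on both strands. For CCN1, TEAD1 and TEAD4 no promoter sequence was available, so they were not searched. The motif was found before 5 of the 9 starts, in CCN2, ANKRD1, AMOTL2, AJUBA and YAP1, and before 11.9% of 35116 promoters in all. It was not found before the other start of AMOTL2, the other start of AJUBA, or the starts of LATS2 and F3. These 5 windows are shown because they hold every match among the genes searched. Each runs from 36 bases before the first motif where the window allowed it, with the motif in capitals.
CCN2 (chr6:131951426-131951577, minus strand): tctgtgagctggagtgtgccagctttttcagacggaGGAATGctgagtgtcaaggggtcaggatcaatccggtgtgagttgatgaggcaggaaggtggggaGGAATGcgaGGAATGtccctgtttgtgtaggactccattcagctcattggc
ANKRD1 (chr10:90921174-90921337, minus strand): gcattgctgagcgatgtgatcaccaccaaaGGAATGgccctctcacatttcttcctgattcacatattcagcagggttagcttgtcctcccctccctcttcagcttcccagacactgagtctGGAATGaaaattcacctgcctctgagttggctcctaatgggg
AMOTL2 (chr3:134374475-134374552, minus strand): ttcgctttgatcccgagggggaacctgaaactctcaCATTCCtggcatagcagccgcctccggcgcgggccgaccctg
AJUBA (chr14:22976860-22976937, minus strand): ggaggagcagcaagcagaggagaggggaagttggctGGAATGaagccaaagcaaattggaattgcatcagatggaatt
YAP1 (chr11:102110249-102110326, plus strand): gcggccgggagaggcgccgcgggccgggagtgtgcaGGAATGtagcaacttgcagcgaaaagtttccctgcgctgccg
CCN2 held 3 copies, beginning 169, 104 and 95 bases before the start, and 0.08% of promoters held 3 or more. ANKRD1 held 2 copies, 220 and 128 bases before the start, and 0.93% of promoters held 2 or more. The single copies began 69 bases before the start in AMOTL2, 59 in AJUBA and 162 in YAP1. A match of these letters is a description and not a binding site.

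The deposited values were read as log2, and all levels below are on that scale. The floor of an array was set where 95% of its 107 probe sets for odorant receptors, not expected in these cells, lay below it, between 2.21 and 2.27. MP2-α2/TC, MP2-α2/CI and MP2-mock shared a minimum of 2.24, and MP2-α2Δ and MP2-α9α2 shared one of 2.21, so that 2 separate normalizations were assumed. The median of the probe sets that exceeded the floor everywhere was 7.72 on the MP2-α2Δ array and 7.69 on the MP2-α9α2 array, and 6.88 on the MP2-mock array. A difference between these sets of arrays is therefore given as deposited and after each array was centred on that median. Many values were identical between arrays of a set, within 1e-06. This held for 21.6% of probe sets over 5 on any of MP2-α2/TC, MP2-α2/CI and MP2-mock, and for none of 14 such probe sets of the 10 genes. It held for 10.5% of those over 5 on MP2-α2Δ or MP2-α9α2, and for 1 of 15 of the 10 genes. Of 7 markers for the carcinoma line, KRT8, KRT18, KRT19 and VIM lay over 11 on all arrays, and EPCAM, CDH1 and KRT7 lay within 0.2 of the minimum. Among fibroblast markers COL1A2 was above the floor and COL3A1, DCN and LUM were not. COL1A1 was well above it only by 217430_x_at, of a kind that can read several transcripts, and its other probe sets lay at 2.24 or less. The blood, acinar and endothelial markers measured lay at 3.38 or less. ITGA9 was at the minimum on every array. ITGA2 was above the floor in MP2-α2Δ cells alone, at 7.28 by its lead probe set and 3.28 by the other. The paper reports no α2 by array in any of its cells, and states that the construct lacks the untranslated sequence the probes read. The MP2-α2Δ reading departs from that report. Its source was not tested, and these probe sets are not used as a check of the introduced α2.

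**Figure D1:**
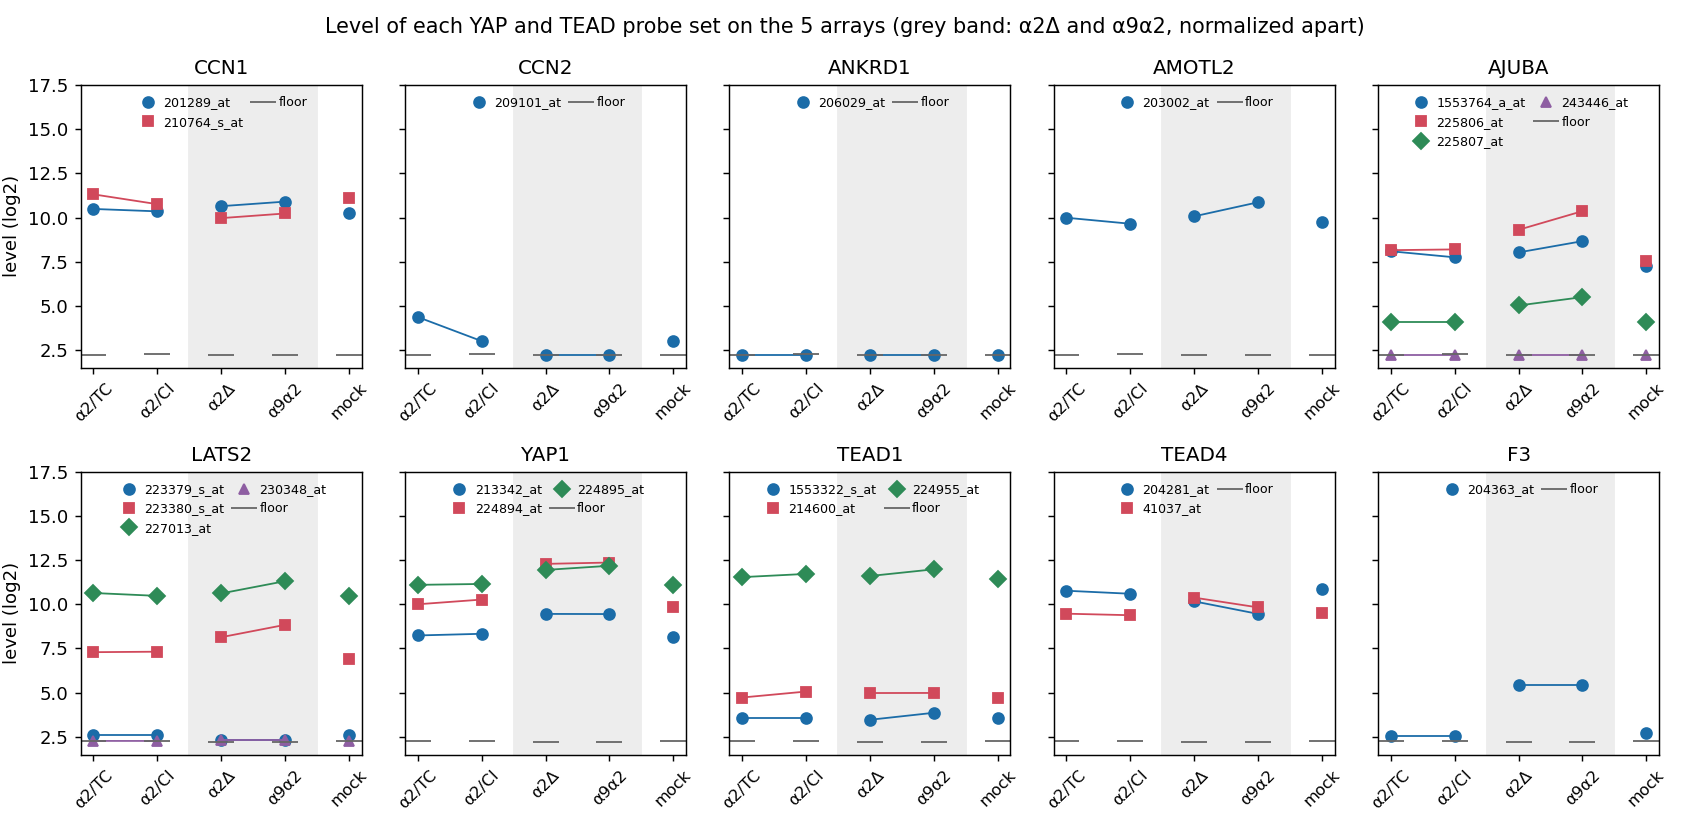
Level of each of the 22 probe sets (log2, vertical axis) on the 5 arrays, 1 panel per gene, with the floor of each array as a dash and lines joining arrays of 1 normalization set. As deposited, YAP1 lay higher on the MP2-α2Δ and MP2-α9α2 arrays with all 3 probe sets. F3 read 5.44 on both of these and 2.70 or less elsewhere, and ANKRD1 lay at the minimum on all 5.

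YAP1 was well above the floor on all 5 arrays with each of its probe sets. By probe set 224895_at it read 11.10 in MP2-α2/TC, 11.15 in MP2-α2/CI, 11.94 in MP2-α2Δ, 12.18 in MP2-α9α2 and 11.10 in MP2-mock cells. Probe set 224894_at gave 10.00, 10.27, 12.29, 12.36 and 9.83 in the same order, and probe set 213342_at gave 8.24, 8.33, 9.46, 9.45 and 8.13. As deposited, all 3 placed the MP2-α2Δ and MP2-α9α2 arrays above the other arrays, and the other 3 arrays lay within 0.44 of each other. Among the arrays normalized together, MP2-α2/CI lay above MP2-mock by 0.44 with 224894_at, 0.20 with 213342_at and 0.05 with 224895_at. MP2-α2Δ and MP2-α9α2 differed by -0.08 with 224894_at, 0.01 with 213342_at and -0.24 with 224895_at. Across the separate normalizations, 224894_at was 5.50-fold higher in MP2-α2Δ and 5.80-fold higher in MP2-α9α2 cells than in MP2-mock, by log2 differences of 2.46 and 2.54. After centring these differences were 1.62 and 1.73. The other probe sets moved less, and after centring 213342_at gave 0.48 and 0.51 and 224895_at gave 0.00 and 0.27. The size of the YAP1 difference across the sets therefore depended on the probe set, while its sign was positive in MP2-α9α2 cells with all 3 under both scalings and in MP2-α2Δ cells with 2 of the 3 beyond 0.01.

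TEAD1, the most widely expressed TEAD, varied little. Probe set 224955_at read 11.54 in MP2-α2/TC, 11.72 in MP2-α2/CI, 11.60 in MP2-α2Δ, 11.98 in MP2-α9α2 and 11.41 in MP2-mock cells. With 214600_at the levels were 4.73, 5.07, 4.98, 4.99 and 4.73, and with 1553322_s_at they were 3.58, 3.58, 3.47, 3.86 and 3.58. MP2-α2/CI was the highest of the 3 arrays normalized together with 2 of the 3 probe sets, by 0.30 and 0.34 over MP2-mock, and the third gave identical values. MP2-α2Δ lay below MP2-α9α2 by 0.38 with 224955_at and by 0.40 with 1553322_s_at, and 214600_at differed by less than 0.01. Across the sets the differences from MP2-mock turned with the scaling. By 224955_at they were 0.19 in MP2-α2Δ and 0.56 in MP2-α9α2 as deposited, and -0.66 and -0.24 after centring.

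TEAD4 was the one member for which every probe set placed MP2-α2Δ above MP2-α9α2. Probe set 204281_at read 10.77 in MP2-α2/TC, 10.60 in MP2-α2/CI, 10.17 in MP2-α2Δ, 9.46 in MP2-α9α2 and 10.84 in MP2-mock cells. Probe set 41037_at read 9.47, 9.38, 10.38, 9.82 and 9.50 in the same order. MP2-α2Δ was above MP2-α9α2 by 0.71, or 1.64-fold, with the first and by 0.55, or 1.47-fold, with the second. Both α2 arrays lay slightly below MP2-mock, by 0.03 to 0.08 in MP2-α2/TC and by 0.12 to 0.25 in MP2-α2/CI. Against MP2-mock across the sets, however, the 2 probe sets parted. In MP2-α9α2 cells 204281_at was 2.62-fold lower, a difference of -1.39, while 41037_at differed by 0.32. In MP2-α2Δ cells they gave -0.68 and 0.87. After centring 204281_at gave -2.19 and 41037_at -0.48 for MP2-α9α2, and -1.52 and 0.03 for MP2-α2Δ. The 2 probe sets were 1.71 apart in MP2-α9α2 and 1.55 apart in MP2-α2Δ cells, a gap that centring an array leaves as it is. No direction is therefore given for TEAD4 across the sets.

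LATS2, the kinase that phosphorylates YAP1 and is itself induced by it, was read by 2 probe sets well above the floor. Probe set 227013_at gave 10.64 in MP2-α2/TC, 10.48 in MP2-α2/CI, 10.62 in MP2-α2Δ, 11.31 in MP2-α9α2 and 10.47 in MP2-mock cells. Probe set 223380_s_at, of a kind that can read several transcripts, gave 7.29, 7.32, 8.14, 8.84 and 6.90. The remaining probe sets, 223379_s_at and 230348_at, lay between 2.27 and 2.59 on all arrays, just above the floor, and are not read further. MP2-α2Δ was lower than MP2-α9α2 by 0.69 with 227013_at and by 0.70 with 223380_s_at, both 1.62-fold. The probe sets thus gave the same step between these arrays. With 223380_s_at both α2 arrays lay above MP2-mock, MP2-α2/TC by 0.39 and MP2-α2/CI by 0.41, and with 227013_at by 0.17 and less than 0.01. Across the sets MP2-α9α2 differed from MP2-mock by 1.93 with 223380_s_at and 0.84 with 227013_at, and by 1.13 and 0.03 after centring. MP2-α2Δ differed by 1.23 and 0.14 as deposited, and by 0.39 and -0.70 after centring, so that the sign of 227013_at turned with the scaling.

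AJUBA, a LIM domain protein of cell junctions that restrains LATS kinases, was as deposited lowest in MP2-mock cells with both of its brighter probe sets. Probe set 225806_at read 8.15 in MP2-α2/TC, 8.20 in MP2-α2/CI, 9.31 in MP2-α2Δ, 10.36 in MP2-α9α2 and 7.53 in MP2-mock cells. Probe set 1553764_a_at read 8.09, 7.75, 8.03, 8.67 and 7.24 in the same order. Among the arrays normalized together, both α2 populations lay above MP2-mock. MP2-α2/TC did so by 0.62 (1.54-fold) with 225806_at and 0.85 (1.81-fold) with 1553764_a_at, and MP2-α2/CI by 0.67 (1.59-fold) and 0.51 (1.43-fold). These steps were under 2-fold, and the dimmer probe set 225807_at read 4.11 on all 3 of these arrays. MP2-α2Δ was 2.08-fold lower than MP2-α9α2 with 225806_at, a difference of -1.05, and lower by 0.64 with 1553764_a_at and by 0.47 with 225807_at, which read 5.03 and 5.50. As deposited, all 3 probe sets above the floor placed MP2-α9α2 highest, and 243446_at lay at the minimum on every array. After centring, 1553764_a_at lay further above MP2-mock in MP2-α2/TC (0.85) than in MP2-α9α2 cells (0.62). Over MP2-mock, 225806_at was higher by 2.83 in MP2-α9α2 and 1.78 in MP2-α2Δ cells, and by 2.03 and 0.94 after centring. The other 2 gave 0.62 and 0.58 in MP2-α9α2, and -0.05 and 0.07 in MP2-α2Δ cells, after centring.

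AMOTL2, an angiomotin family member that holds YAP1 at junctions and in the cytoplasm, read 9.99 in MP2-α2/TC, 9.65 in MP2-α2/CI, 10.07 in MP2-α2Δ, 10.86 in MP2-α9α2 and 9.76 in MP2-mock cells by its single probe set, 203002_at. MP2-α2Δ was lower than MP2-α9α2 by 0.80 (1.74-fold), the step next below 2-fold in this comparison after AJUBA 225806_at. MP2-α2/CI was lower than MP2-α2/TC by 0.34 (1.27-fold). MP2-α9α2 lay above MP2-mock by 1.11 as deposited and 0.30 after centring, and MP2-α2Δ by 0.31 and -0.53. The sign in MP2-α2Δ cells thus turned with the scaling.

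CCN1, a secreted matricellular protein that binds integrins, was high on all arrays. Probe set 201289_at read 10.49 in MP2-α2/TC, 10.35 in MP2-α2/CI, 10.64 in MP2-α2Δ, 10.90 in MP2-α9α2 and 10.26 in MP2-mock cells. Probe set 210764_s_at read 11.31, 10.76, 9.97, 10.23 and 11.10 in the same order. MP2-α2/CI was below MP2-α2/TC with both, by 0.14 (1.10-fold) with 201289_at and 0.56 (1.47-fold) with 210764_s_at. MP2-α2Δ was below MP2-α9α2 by 0.26 with each, so the probe sets gave like steps within a set. Across the sets they did not. MP2-α2Δ differed from MP2-mock by 0.38 with 201289_at and by -1.13, or 2.19-fold lower, with 210764_s_at, and MP2-α9α2 by 0.64 and -0.87. The 2 differences were 1.51 apart in both populations, and after centring all of them lay below 0. They were then -0.46 with 201289_at and -1.97 with 210764_s_at for MP2-α2Δ, and -0.17 and -1.68 for MP2-α9α2. As the sign of 201289_at depended on the scaling, no direction is given for CCN1 across the sets.

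CCN2, the connective tissue growth factor and the promoter with 3 motif copies above, lay close to the floor. Its only probe set, 209101_at, read 4.37 in MP2-α2/TC, 3.01 in MP2-α2/CI and 3.02 in MP2-mock cells, and was at the minimum of 2.21 in MP2-α2Δ and MP2-α9α2 cells. MP2-α2/TC stood apart from the other 4 arrays. It was 2.55-fold above MP2-mock, a difference of 1.35, and MP2-α2/CI was 2.57-fold below MP2-α2/TC, a difference of -1.36. MP2-α2/CI differed from MP2-mock by -0.01. With the floor set at 4 instead, only 0.37 of either difference remained, as 4 of the 5 values lie below that level. The lowest levels in MP2-α2Δ and MP2-α9α2 cells are bounds, and they lay at least 1.76-fold below MP2-mock as deposited. After centring the differences were -1.65 and -1.62, and after quantile normalization -0.92 in both. Centring also moved ANKRD1, at the floor on these arrays, to -0.89 and -0.85, so the centred CCN2 values are not read as bounds. With the floor at 4 the CCN2 differences were 0.

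ANKRD1, a nuclear ankyrin repeat protein induced by stretch in muscle, lay at the minimum on all 5 arrays by its single probe set, 206029_at, despite the 2 motif copies before its start. No difference can be given for it. F3, tissue factor, the receptor that starts coagulation, read 2.56 in both MP2-α2/TC and MP2-α2/CI, 5.44 in both MP2-α2Δ and MP2-α9α2, and 2.70 in MP2-mock cells by 204363_at. The values were identical within each of these pairs, and both α2 arrays differed from MP2-mock by -0.14. Both MP2-α2Δ and MP2-α9α2 lay 6.69-fold above MP2-mock, by 2.74 as deposited and by 1.90 and 1.94 after centring. With the floor at 4 the difference was 1.44 in both. As deposited, 3.65% of all probe sets tested lay at least as far above MP2-mock on the MP2-α2Δ array, and 4.45% did so on the MP2-α9α2 array.

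**Figure D2:**
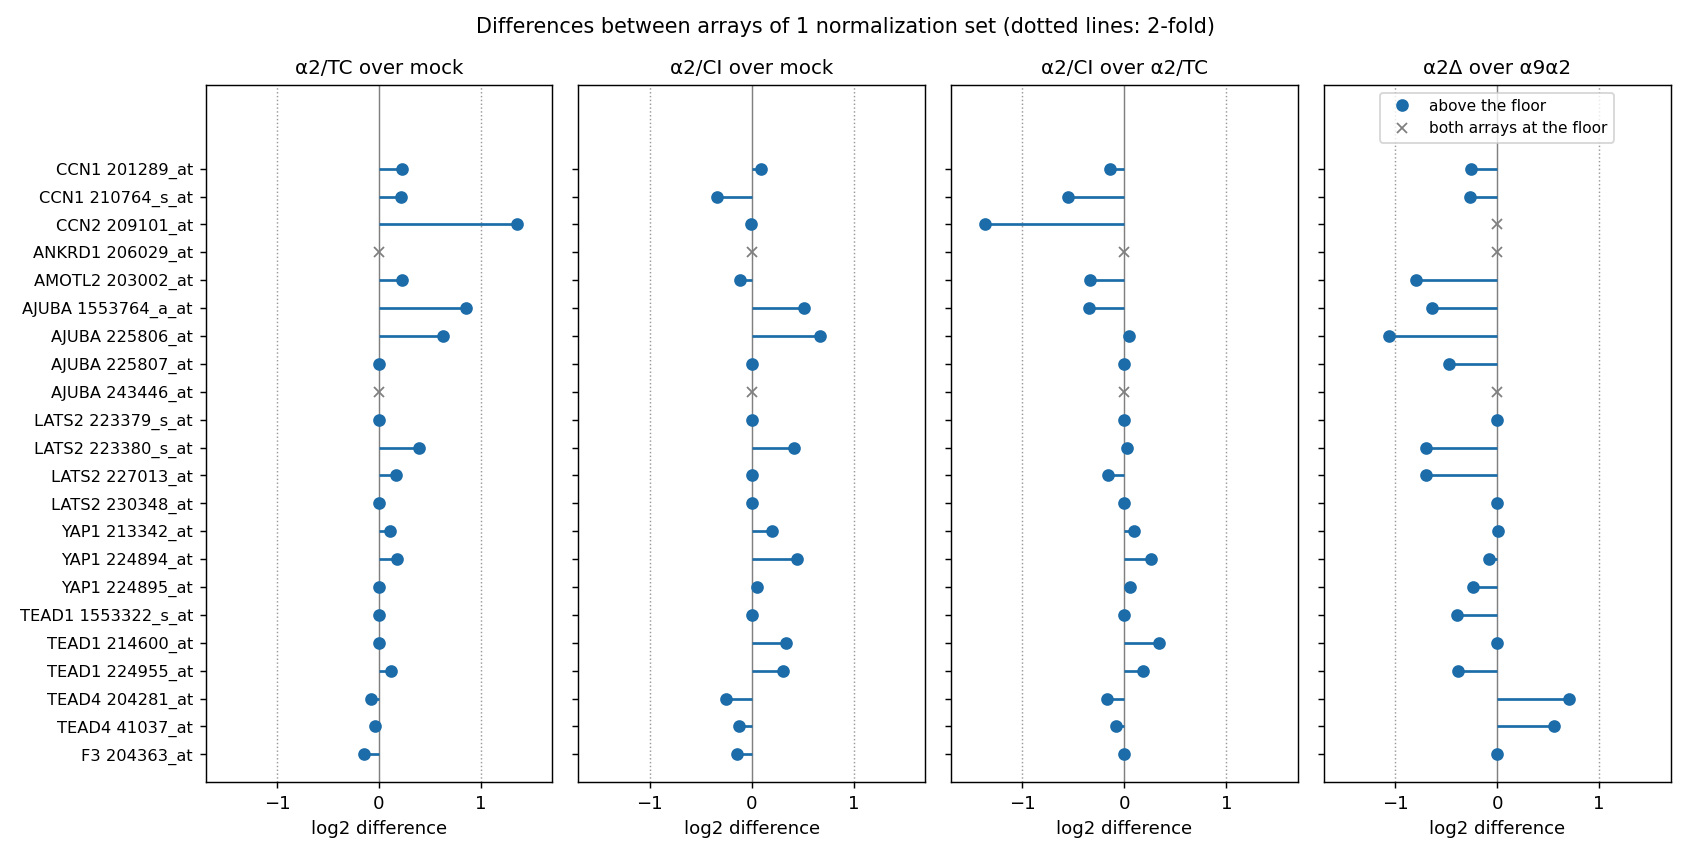
Log2 difference (horizontal axis) of each of the 22 probe sets in the 4 comparisons between arrays normalized together, with 2-fold marked by dotted lines and a cross where both arrays were at the floor. CCN2 passed 2-fold in MP2-α2/TC over MP2-mock (1.35) and in MP2-α2/CI over MP2-α2/TC (-1.36), and AJUBA 225806_at did so in MP2-α2Δ over MP2-α9α2 (-1.05).

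The same values were then counted by comparison. For α2 in standard culture, MP2-α2/TC over MP2-mock, 20 probe sets of 9 genes were above the floor on either array. CCN2 was at least 2-fold higher and none was lower, where 0.214% of 29885 probe sets were 2-fold higher and 0.248% lower. Of the 20, 12 lay above MP2-mock, 3 below and 5 were identical, with a median of 0.11. Over all probe sets tested 26.0% lay above and 24.2% below, and the median was 0. For α2 on collagenI, MP2-α2/CI over MP2-mock, none of 20 was 2-fold apart, against 0.236% higher and 0.256% lower over 29696. Differences ran from -0.34 for CCN1 210764_s_at to 0.67 for AJUBA 225806_at, with 10 above 0, 6 below and a median of 0.00. Over all probe sets 32.1% lay above 0 and 25.3% below. Nothing is read from these counts, as the genes were chosen with the differences in view.

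MP2-α2/CI over MP2-α2/TC set α2 cells kept on collagenI against α2 cells in standard culture. The paper reports more α2 and more surface β1 in MP2-α2/CI than in MP2-α2/TC cells. Substrate and integrin level thus differed together and cannot be told apart. CCN2 was at least 2-fold lower and none of the 20 was higher, where 0.0335% of 29810 probe sets were higher and 0.104% lower. The next lower steps were those of CCN1 210764_s_at (-0.56), AJUBA 1553764_a_at (-0.34) and AMOTL2 (-0.34), and the highest were TEAD1 214600_at (0.34) and YAP1 224894_at (0.27). In all 9 lay below 0, 7 above and 4 were identical, where 21.7% of all probe sets lay below 0 and 29.5% above. As the genes were chosen with the differences in view, these counts are not read either.

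MP2-α2Δ over MP2-α9α2 set α2 without its cytoplasmic domain on collagenI against the chimera on tenascin. Of 19 probe sets of 8 genes above the floor, AJUBA 225806_at was at least 2-fold lower and none was higher, where 7.56% of 30975 probe sets were higher and 4.95% lower. Most of the genes leaned the same way. In all, 13 of the 19 lay below 0, 3 above and 3 were identical, with a median of -0.26, where 36.3% of all probe sets lay below 0, 34.0% above, and the median was 0. The members below were AJUBA, AMOTL2, LATS2, CCN1 and TEAD1 together with 2 probe sets of YAP1, and those above were TEAD4 and, by 0.01, YAP1 213342_at. Since the genes were chosen with these values in view, nothing is read from this count.

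**Figure D3:**
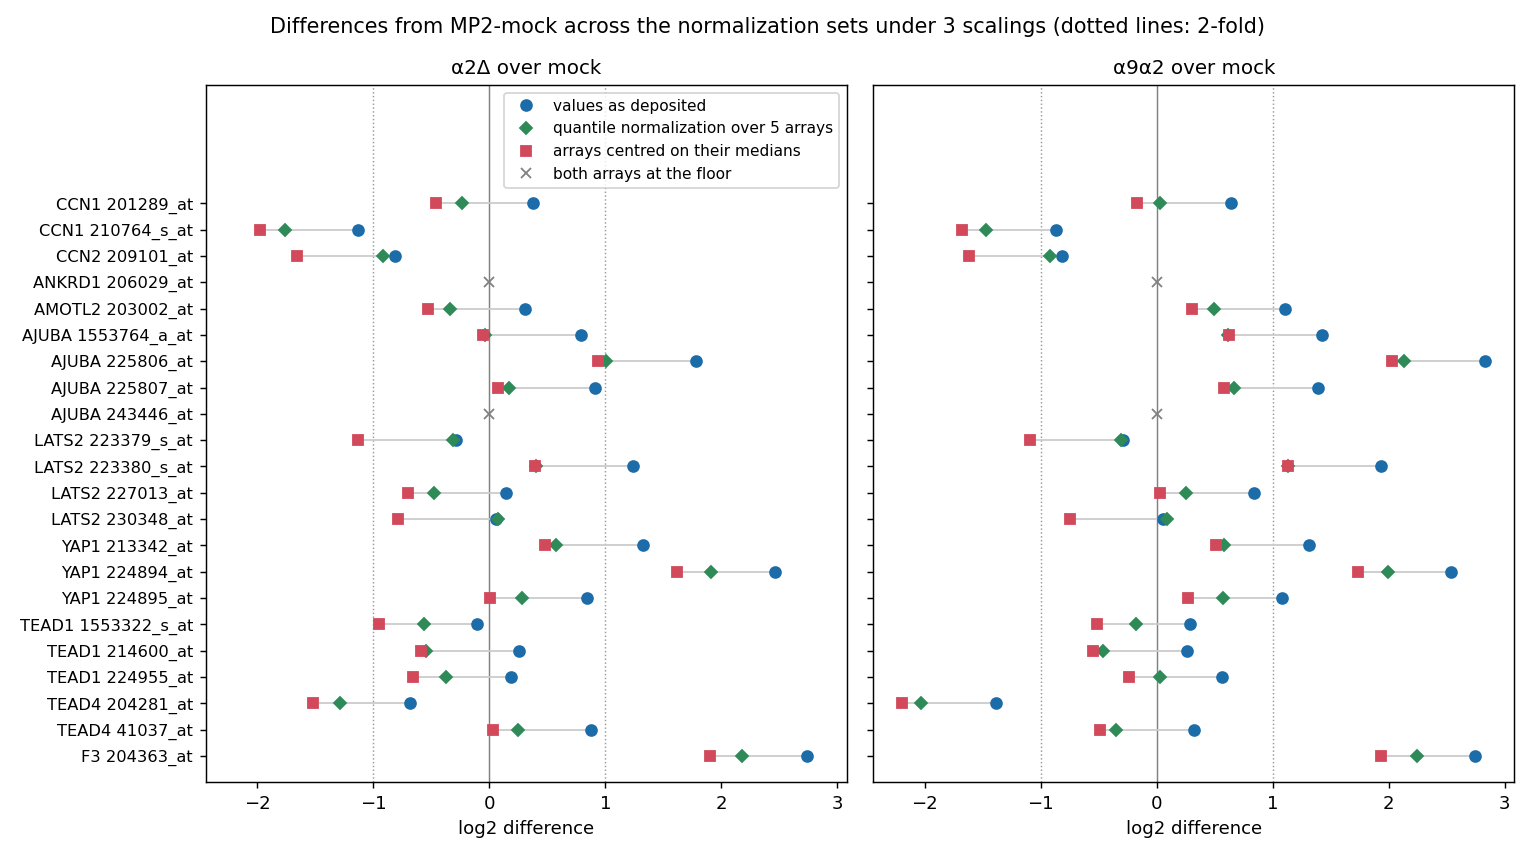
Log2 difference from MP2-mock (horizontal axis) of each probe set in MP2-α2Δ (left) and MP2-α9α2 (right) cells, as deposited, after quantile normalization over the 5 arrays, and after centring each array on its median. Centring moved every difference down. F3, every YAP1 probe set, AJUBA 225806_at and 225807_at and LATS2 223380_s_at stayed above 0 under all 3 scalings in both populations. For YAP1 224895_at in MP2-α2Δ cells this was by 0.002 after centring.

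Across the separate normalizations, MP2-α2Δ lay at least 2-fold above MP2-mock with 5 of 20 probe sets and below it with 1, where 30.2% of 32371 probe sets were higher and 6.77% lower. MP2-α9α2 lay above with 9 of 20 and below with 1, where 31.7% of 32331 were higher and 9.52% lower. These backgrounds carry the shift between the sets of arrays. After centring, the counts were 2 higher and 4 lower for MP2-α2Δ, and 4 higher and 4 lower for MP2-α9α2. Over all probe sets 12.45% were then higher and 22.4% lower for MP2-α2Δ, and 15.7% and 23.8% for MP2-α9α2. The share of higher calls among all 2-fold calls was 81.7% as deposited and 35.7% after centring for MP2-α2Δ, and 76.9% and 39.7% for MP2-α9α2. F3 and YAP1 224894_at were at least 2-fold above MP2-mock in both populations under both scalings. AJUBA 225806_at was so in MP2-α9α2 cells, and in MP2-α2Δ cells it was 3.43-fold higher as deposited and 1.91-fold higher after centring. LATS2 223380_s_at was 2-fold higher under both scalings in MP2-α9α2 cells. CCN1 210764_s_at for MP2-α2Δ and TEAD4 204281_at for MP2-α9α2 were 2-fold lower under both.

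The genes most like CCN2 and AJUBA, the members with the largest steps within a set, were sought among 13535 genes by Euclidean distance over 3 log2 differences, those of MP2-α2Δ over MP2-α9α2 and of each α2 array over MP2-mock. Nearest to CCN2 was ITPRID2, at a distance of 0.26, with levels of 10.07 in MP2-α2/TC, 9.05 in MP2-α2/CI, 10.46 in MP2-α2Δ, 10.53 in MP2-α9α2 and 8.86 in MP2-mock cells. CCN2 was at the floor on the MP2-α2Δ and MP2-α9α2 arrays, so that its difference of 0 between them is no measurement, while ITPRID2 was read well above the floor there. MARCKS (0.47), MATN2 (0.54), BAMBI (0.56) and UGCG (0.72) followed. Nearest to AJUBA was TBX2, at 0.12, then MYO10 (0.20), EML6 (0.23), CD109 (0.24) and RHPN2 (0.25). MYO10 read 10.86, 11.16, 11.26, 12.24 and 10.36 in the order given for ITPRID2, and CD109 read 10.58, 10.82, 11.34, 12.45 and 10.19. With 3 differences and 5 arrays, many genes lie close together by this measure.

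Of 19 Hippo kinases and upstream proteins, 16 or 17 were above the floor, and none was 2-fold from MP2-mock in MP2-α2/TC or MP2-α2/CI cells. This gene list and those that follow were chosen with earlier results of these data known, so nothing is read from their counts. In MP2-α2Δ over MP2-α9α2, 13 of 17 lay below 0 and 2 above, 3 were at least 2-fold lower, and the median was -0.42. Over all probe sets 36.3% lay below 0 and 4.95% were 2-fold lower. Such shares cover every probe set above the floor on either array, while a list counts 1 lead probe set per gene, its brightest. Of all those probe sets 29.7% were identical between these 2 arrays, against 10.5% of those over 5. The list counts and the shares are therefore not on a like basis, here and in the lists below. FRMD6, a FERM domain protein upstream of the kinases, was 9.36-fold lower. It read 6.50 on the MP2-α2Δ array, 9.73 on the MP2-α9α2 array and between 8.72 and 8.79 on the other arrays, and its other probe set gave -2.83. AMOTL1, an angiomotin like AMOTL2, was 4.88-fold lower, at 6.80 for MP2-α2Δ and 9.08 for MP2-α9α2, and 2 of its 4 probe sets passed 2-fold. MAP4K4, a kinase that can act on LATS1 and LATS2, was 2.08-fold lower, though 2 of its 5 probe sets gave 0.43. MOB1A, the cofactor of the LATS kinases, gave 0.81 by its lead probe set and 0.00, -0.55 and -0.92 by the others. The LATS2, AMOTL2 and AJUBA steps between these 2 arrays were thus smaller than those of FRMD6 and AMOTL1.

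**Figure D4:**
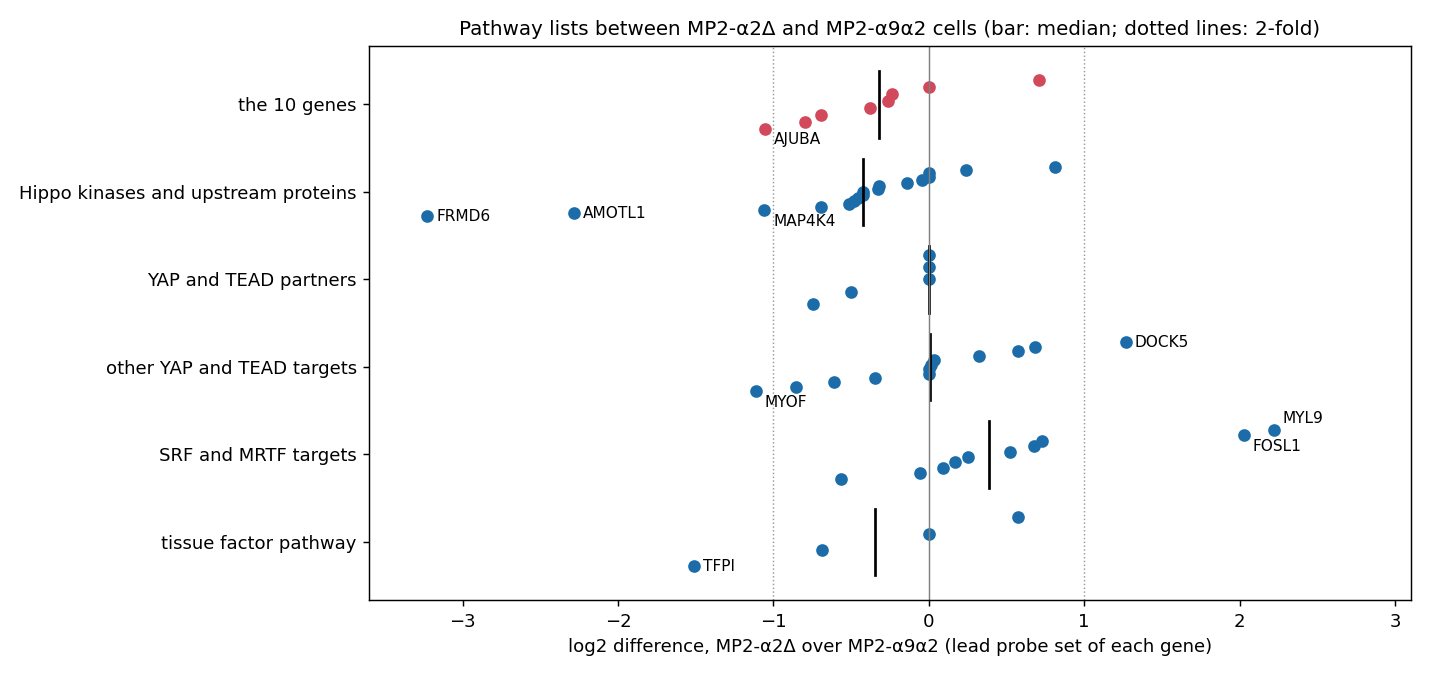
Log2 difference of MP2-α2Δ over MP2-α9α2 (horizontal axis) for the lead probe set of each gene above the floor, in the 10 genes and 5 pathway lists, with the median of each list as a bar and 2-fold as dotted lines. FRMD6 (-3.23) and AMOTL1 (-2.29) were lowest, MYL9 (2.22) and FOSL1 (2.03) highest, and among the 10 genes AJUBA alone passed 2-fold.

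Of 7 partners of YAP1 and TEAD, 5 were above the floor, and none was 2-fold apart by its lead probe set in any comparison within a set. WWTR1, the coactivator TAZ, read 12.41 in MP2-α2/TC, 12.66 in MP2-α2/CI, 14.21 in MP2-α2Δ, 14.71 in MP2-α9α2 and 12.23 in MP2-mock cells, and centring left MP2-α2Δ above MP2-mock by 1.14 and MP2-α9α2 by 1.68. This is the order of arrays that YAP1 224894_at showed, although another WWTR1 probe set, 202134_s_at, gave -0.25 and -0.90 as deposited. A further one, 202132_at, was 2-fold lower for MP2-α2Δ over MP2-α9α2, by -1.06. VGLL4, which competes with YAP1 for TEAD, differed by -0.75 for MP2-α2Δ over MP2-α9α2 by its lead probe set and by 0.82 with the other, and TEAD2 by -0.67 for MP2-α2/TC over MP2-mock.

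Of 20 other known targets, 17 had a probe set of their own and 11 to 13 were above the floor. None was 2-fold from MP2-mock on either α2 array, with a median of 0.12 for each. Of 11, 7 lay above MP2-mock and 1 below for MP2-α2/TC, and 9 above and 2 below for MP2-α2/CI. Over all probe sets 26.0% lay above and 24.2% below for MP2-α2/TC, and 32.1% and 25.3% for MP2-α2/CI. In MP2-α2Δ over MP2-α9α2, 6 of 12 lay above 0 and 4 below, with a median of 0.01. Over all probe sets 34.0% lay above 0 and 36.3% below. DOCK5, an exchange factor for Rac, was 2.41-fold higher in MP2-α2Δ, and MYOF, a membrane ferlin, was 2.17-fold lower. ASAP1, a regulator of Arf proteins, differed by -0.86, though its probe set 224791_at gave 0.32, and AXL, a receptor tyrosine kinase, by 0.69.

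Targets of SRF and its coactivators MRTF, which share several genes and the link to actin with YAP1, had 8 of 10 above 0 in MP2-α2Δ over MP2-α9α2, 2 at least 2-fold higher and a median of 0.39, where 34.0% of all probe sets lay above 0 and 7.56% were 2-fold higher. MYL9, a myosin light chain, was 4.66-fold higher, at 7.02 for MP2-α2Δ and 4.80 for MP2-α9α2. FOSL1, an AP-1 subunit, was 4.07-fold higher, at 10.03 and 8.0. TAGLN, an actin-binding protein, was lower in MP2-α2/CI than in MP2-α2/TC cells by 1.04 with 205547_s_at, at 4.95 and 5.99. By that probe set it read 5.16 in MP2-mock. The other TAGLN probe sets gave -0.55 (1555724_s_at) and 0.00 (226523_at) for MP2-α2/CI over MP2-α2/TC. CCN2 also had its highest level in MP2-α2/TC cells. FHL2, a LIM domain coactivator, lay higher by 0.68 for MP2-α2Δ over MP2-α9α2.

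Among other CCN proteins only CCN6 was above the floor, between 3.21 and 3.66, and CCN3, CCN4 and CCN5 were not. In the tissue factor pathway, 4 of 7 measured genes were above the floor. F2R, the thrombin receptor, read 8.46 in MP2-α2/TC, 8.62 in MP2-α2/CI and 6.93 in MP2-mock cells, differences of 1.52 and 1.68. These are from 203989_x_at, of a kind that can read several transcripts. The other F2R probe set, 1569642_at, read 4.99 on each of these arrays. TFPI, the inhibitor of tissue factor, was 2.86-fold lower for MP2-α2Δ, at 12.00 against 13.51 for MP2-α9α2, and 2 of its 5 probe sets passed 2-fold. PROCR, the protein C receptor, lay above MP2-mock by 0.62 in MP2-α2/CI cells. F3 itself read identically on the MP2-α2Δ and MP2-α9α2 arrays, as did 10.5% of probe sets over 5 there, so no agreement is read from it. On the other arrays F3 lay near the floor.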

How the data were processed

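The deposited values, 1 for each probe set on an array, had been normalized by the authors and were taken to be log2 from their range, since no source used here states the base. GCRMA and MAS5 are the tools in the submitters' processing notes, with neither step nor version. Which arrays were normalized together was inferred from their shared minimum. The authors' array statistics were not used here. Of 54675 probe sets, 62 controls were left out. The platform annotation gave 41091 probe sets 1 symbol, brought up to date through RefSeq for 41037, and no probe set with several genes held 1 of the 10. Values below the floor were raised to it, 6 pairs of arrays were subtracted on the log2 scale, and steps of at least 2-fold were counted. The lead probe set of a gene is the one with the highest mean over the 5 arrays. With 1 array per population no test was possible and signal over the floor is the only measure of precision. The members, the gene lists and the rule for named genes were chosen with earlier results of these data known. By that rule all member probe sets are given, up to 4 genes of a list with the largest step within a set, and the 5 genes most like each of 2 members. Cell markers and ITGA2 describe the arrays. The counting was tested on simulated data. Alternatives were other floors, centring, quantile normalization, 1.5-fold and 3-fold limits, omission of the kinds of probe set (_s_at, _x_at) open to several transcripts, and the second probe set of a gene. Python 3.11.15, numpy 2.4.6 and pandas 2.3.3 were used.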

Additional observations from a re-analysis of the deposited data

Results flagged for a closer look

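Signs were compared between MP2-α2/TC and MP2-α2/CI and between MP2-α2Δ and MP2-α9α2 only. In 3 probe sets the differences from MP2-mock had opposite signs in the 2 populations of such a pair, each at least 0.1 in size. These contrasts were not tested. The share of all probe sets that meet this rule is not given here, so nothing is read from the count. CCN1 210764_s_at differed by 0.21 for MP2-α2/TC and by -0.34 for MP2-α2/CI, which are 0.56 apart. AMOTL2 203002_at differed by 0.23 and -0.11 in the same populations, 0.34 apart. TEAD1 1553322_s_at differed by -0.11 for MP2-α2Δ and by 0.29 for MP2-α9α2, across the sets of arrays, a contrast of -0.40, and both values were negative after centring.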

How the results depend on the processing

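No paired analysis was possible because each population had 1 array and no result came from a test. The totals of probe sets of the 10 genes at least 2-fold apart, higher and lower together, stayed within 1.5 times of their value without a floor, after centring, and without probe sets that can read several transcripts, in all 6 comparisons. Centring changed the split all the same, to 2 higher and 4 lower in place of 5 and 1 for MP2-α2Δ over MP2-mock, and to 4 and 4 in place of 9 and 1 for MP2-α9α2. With a floor at 4 the CCN2 calls were lost, which left 0 in MP2-α2/TC over MP2-mock and 0 in MP2-α2/CI over MP2-α2/TC. Quantile normalization gave 6 in place of 10 in MP2-α9α2 over MP2-mock. At 1.5-fold the counts were 3 in MP2-α2/TC over MP2-mock, 1 in MP2-α2/CI over MP2-mock, 6 in MP2-α2Δ over MP2-α9α2 and 12 in MP2-α2Δ over MP2-mock. At 3-fold they were 0 in MP2-α2/TC over MP2-mock, in MP2-α2/CI over MP2-α2/TC and in MP2-α2Δ over MP2-α9α2, 3 in MP2-α2Δ and 4 in MP2-α9α2 over MP2-mock. The shares of all probe sets at these limits, at the floor of 4 and after quantile normalization are not given here. Nothing about the 10 genes is therefore read from these counts. Among differences of at least 2-fold, the second probe set turned the sign of CCN1 in MP2-α2Δ over MP2-mock, to 0.38, and of TEAD4 in MP2-α9α2 over MP2-mock, to 0.32. Smaller differences turned as well, among them CCN1 over MP2-mock for MP2-α9α2 (to 0.64) and MP2-α2/CI (to 0.09), TEAD4 for MP2-α2Δ over MP2-mock (to 0.87) and LATS2 for MP2-α2/CI over MP2-α2/TC (to 0.03). Of 276 single differences recomputed, 231 moved by less than 1.5-fold, some of them across 0, 43 moved by more, and the other 2 are the turned differences of at least 2-fold. Low signal limits CCN2, F3 and ANKRD1. The cause of these changes was not tested.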
